A study of Mus musculus with 5 samples.

Results

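The enzymes of cyclic nucleotide signaling examined here are the adenylyl cyclases, the phosphodiesterases, the subunits of protein kinase A (PKA), its anchor *Akap5*, and its target *Ppp1r1b*. A list of 32 genes defined them, and each was read from the brightest probe set, on average, of those annotated with 1 gene symbol. Of the 32 genes, 31 had such a probe set, against 19938 genes on the whole array. The exception was the PKA catalytic subunit gene *Prkaca*, whose probe set also carried the symbol of a neighboring gene, so *Prkaca* has no value here. Signals were hybridized from retrogradely labeled neurons of the primary somatosensory cortex (S1) of wild-type ICR mice, an outbred stock, at postnatal day 24, 3 days after the tracer Green RetroBeads. Long association neurons were labeled from the ipsilateral primary motor area (M1) and taken from L2/3, L5, and L6b. Callosal neurons were labeled from the contralateral S1 and taken from L2/3 and L5. All groups came from mice whose L2/3 neurons had been electroporated in utero with a tdTomato plasmid, and about 1000 neurons per group were cut out one by one by laser microdissection. The number of animals behind each group is unknown here. Each group was 1 array, so no value below has a replicate error, no test was possible, and differences describe these 5 arrays. In captured cells, fewer cells of a type and less RNA per cell cannot be told apart.

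Cyclic AMP is made from ATP by membrane adenylyl cyclases that G proteins, and in some members calcium with calmodulin, switch on or off. It releases the catalytic subunits of PKA from their regulatory subunits, which scaffold proteins hold at synapses and dendrites, and phosphodiesterases end the signal by hydrolyzing cyclic AMP, cyclic GMP, or both. In cortical pyramidal neurons this pathway links neuromodulators and calcium entry to the phosphorylation of receptors and channels and, through the factor CREB, to transcription.

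The values are log2 signals minus the median of the array, so 0 is the array median and a difference of 1 is 2-fold. Genes below the median in every array were set aside, which kept 12632 genes and 25 of the 31 members. Of these 25, 21 reached the median in all 5 arrays, 2 in 4 arrays, and 2 in 3 arrays, and no member passed through 1 array alone. The 6 members below the median in every array were the cyclase gene *Adcy8* and the phosphodiesterase genes *Pde1c*, *Pde3a*, *Pde3b*, *Pde5a*, and *Pde8a*. Their values lay between -1.64 and -0.02, and each varied by 0.06 to 0.44 over the arrays. Signals of different genes were not compared with each other, since probe sets differ in brightness.

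The 5 arrays correlated at 0.918 to 0.938, with deposited medians of 5.71 to 5.80. All 7 L6b and subplate markers examined were highest in the L6b array, with a summed linear signal (in multiples of the array median) of 78.1 there and 8.24 to 8.84 elsewhere. The L2/3 markers summed to 67.5 and 57.5 in the association and callosal L2/3 arrays and to 12.9 to 21.5 in the others. The L5 markers summed to 87.7 and 86.7 in the L5 arrays, 80.3 in L6b, and 21.2 and 32.1 in L2/3. *Pcp4* made up most of the L6b sum and of both L5 sums (6.16 in L6b, 5.99 in association L5). Of the other L5 markers, *Fezf2* (0.32 against 1.39), *Etv1* (0.35 against 1.65), *Rbp4* (0.53 against 3.76), and *Foxo1* (0.39 against 0.62) were lower in L6b than in association L5. *Bcl11b* (0.80 against 0.66) and *Parm1* (0.83 against 0.77) were slightly higher. *Etv1* was highest in association L2/3, at 2.75, and *Rbp4* was higher in both L2/3 arrays (2.23 and 2.20) than in callosal L5 (1.12). The L6a corticothalamic markers, of which *Foxp2* and *Ntsr1* were below the median everywhere, summed to 19.0 in L6b and to 8.01 to 9.39 elsewhere. All 7 of them were also highest in the L6b array, with *Tle4* at 2.91 there and at -0.28 to 0.07 elsewhere. The vesicular glutamate transporter gene *Slc17a7* stood at 3.84 to 4.47 in all arrays. Several general lists also moved with the L6b array. Glutamatergic markers summed to 50.8 in L6b against 83.4 to 115 elsewhere, with 4 of 7 measured markers lowest in L6b, and *Camk2a*, a kinase gene of excitatory neurons, stood at 2.41 against 4.41 to 5.75. GABAergic markers summed to 23.1 against 56.4 to 80.5, with 4 of 10 lowest. Striatal medium spiny neuron markers summed to 9.90 in L6b against 13.3 to 25.3, with 3 of 8 lowest (*Penk* at 0.08 against 1.69 to 3.95 and *Tac1* at -1.77 against 0.18 to 3.32 among them) and 4 of 8 highest in L6b. Myelin markers summed to 57.7 in L6b and 50.3 in association L5 against 13.2 to 30.6 in the other arrays, with 4 of 9 highest in L6b. Sums for oligodendrocyte precursors (5.11 to 6.72), astrocytes (29.9 to 37.3), microglia (10.3 to 11.6), and endothelial and mural cells (12.4 to 15.7) differed less. The part of these lists in the results below was not tested.

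Most members differed little among the arrays, and most of the wide differences lay with the phosphodiesterases, the PKA regulatory subunits, and the anchor. Over the 5 arrays, 10 of the 25 members spanned at least 2-fold, against 29.5% of all genes kept. These were 1 of 7 cyclases, 6 of 11 phosphodiesterases, 2 of 5 PKA subunits, and *Akap5*. The widest was *Akap5*, with a span of 3.59 log2 or 12.0-fold, followed by *Pde7b* at 2.99, *Prkar1b* at 2.34, and *Pde8b* at 1.78. The remaining 6 wide members, *Pde1a*, *Pde1b*, *Pde4b*, *Prkar2b*, *Pde7a*, and *Adcy2*, spanned 1.05 to 1.23. As deposited, *Adcy2* (0.99) and *Pde7a* (0.97) spanned less than 2-fold, which left 8 members. Many deposited values were identical between arrays. At least 2 arrays shared a value in 19 of the 25 members (66.7% of all genes), and at least 3 did in 9 (36.4%). At least 4 did in *Adcy5*, *Pde2a*, and *Ppp1r1b* (11.7% of all genes). Of the widest members, *Pde8b* had 6.96 in association L5 and both callosal arrays. *Akap5* had 8.14 in both L5 arrays, and *Prkar1b* had 9.74 in association L5 and callosal L2/3. Subtracting the medians turns such identical values into differences of up to 0.09.

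**Figure D1:**
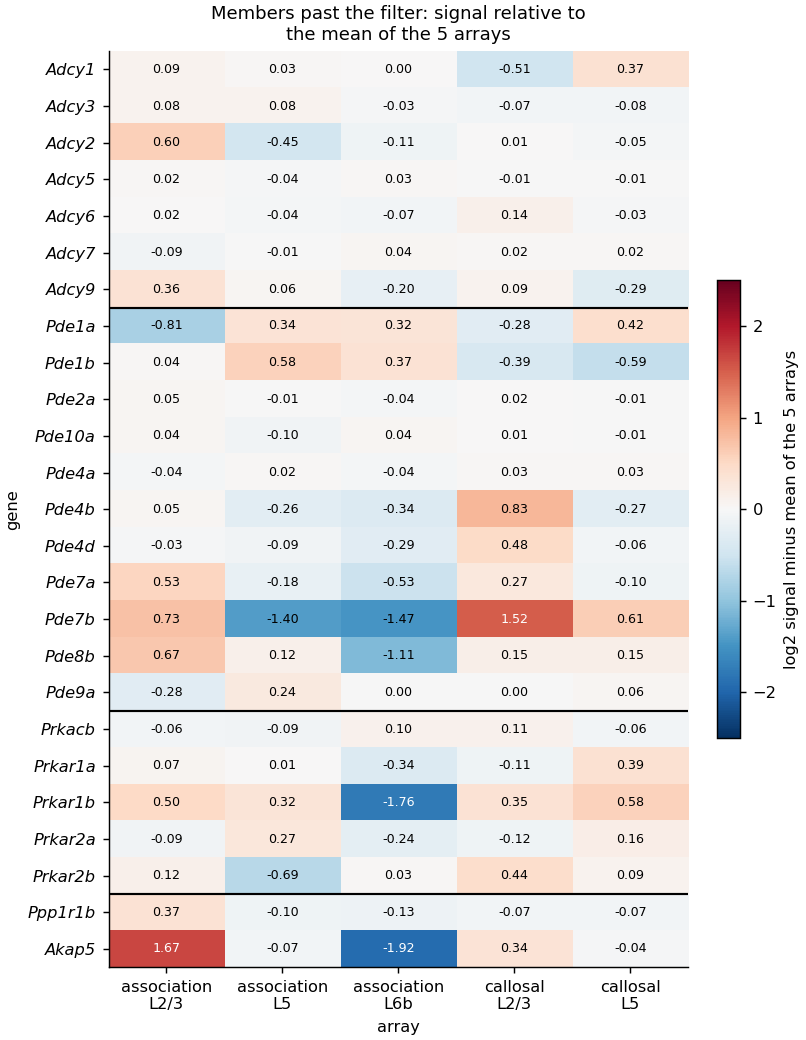
Log2 signal of the 25 members past the filter (rows) in the 5 arrays (columns, 1 array each), relative to the array median and then to the gene's mean over the arrays. Red is above and blue below that mean, and lines part cyclases, phosphodiesterases, PKA subunits, and target and anchor; *Akap5*, *Prkar1b*, *Pde7b*, and *Pde8b* have the darkest blue cells, all in L6b, with *Pde7b* dark in association L5 too.

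**Figure D2:**
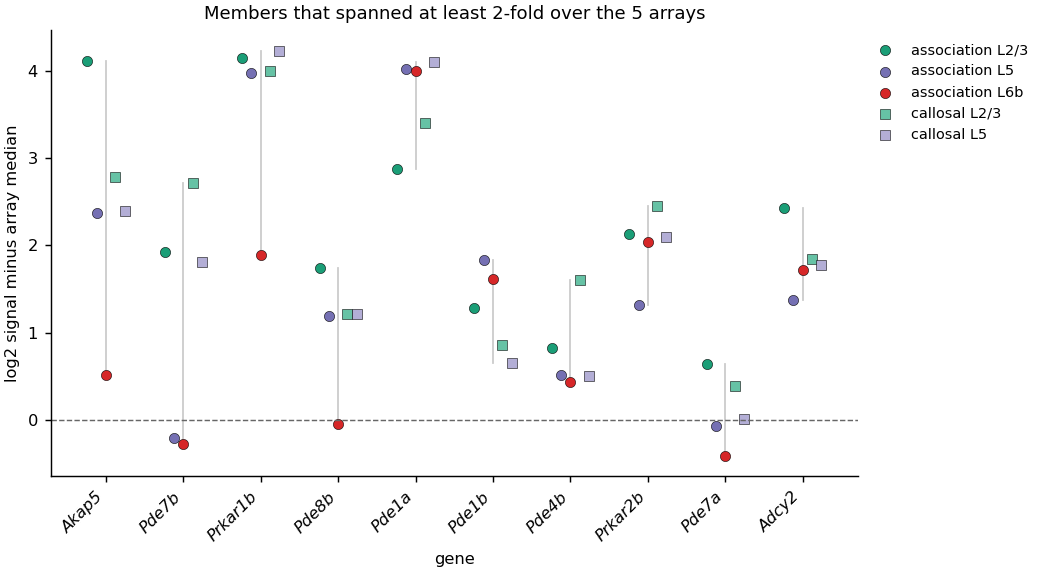
Log2 signal minus the array median (vertical axis) of the 10 members that spanned at least 2-fold (horizontal axis, ordered by span), 1 point per array (circles association, squares callosal neurons) and a grey line over the range. *Akap5*, *Prkar1b*, and *Pde8b* have the L6b point (red) apart below the others, at 0.52, 1.89, and -0.04, while *Pde7b* is low in L6b and in association L5.

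Association neurons of L6b stood apart by low signals of an anchor, a regulatory subunit, and a phosphodiesterase. In L6b, *Akap5*, *Prkar1b*, and *Pde8b* were at least 2-fold below every other array, which is 3 of 25 members against 2.82% of all genes. No member was in L6b 2-fold or more above every other array, against 1.26% of all genes. Bright genes were lower in L6b more often. Among the 6565 genes that reached the 75th percentile of an array, 5.35% were lower in this way, as were the same 3 of the 17 members there. The L6b enrichment, which is the L6b signal minus the mean of the other 4 arrays, had a median of -0.09 over the 25 members and of -0.06 over all genes, and ranged from -2.40 to 0.46 in the members. With the 75th percentile subtracted in place of the median, the medians were 0.01 and 0.05. The sign of both medians thus changed with the scaling, and the members' median stayed close to that of all genes. As deposited, without ties, L6b was the lowest array for 9 members, against 17.4% of all genes. These were *Akap5*, *Prkar1a*, *Prkar1b*, *Prkar2a*, and the cyclic AMP phosphodiesterases *Pde4b*, *Pde4d*, *Pde7a*, *Pde7b*, and *Pde8b*, and the count was 7 to 12 under the other scalings (15.4% to 30.5% of all genes). Under the other scalings, L6b was the highest array for 2 to 6 members, against 21.3% to 36.9% of all genes. As deposited, it was the highest for 4 members, *Adcy5*, *Adcy7*, *Pde10a*, and *Prkacb*, against 26.6% of all genes. These 4 had a small L6b enrichment of 0.04 to 0.13, about the size of the 0.11 by which a scaling moved all genes. It stayed above 0 under each scaling.

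**Figure D3:**
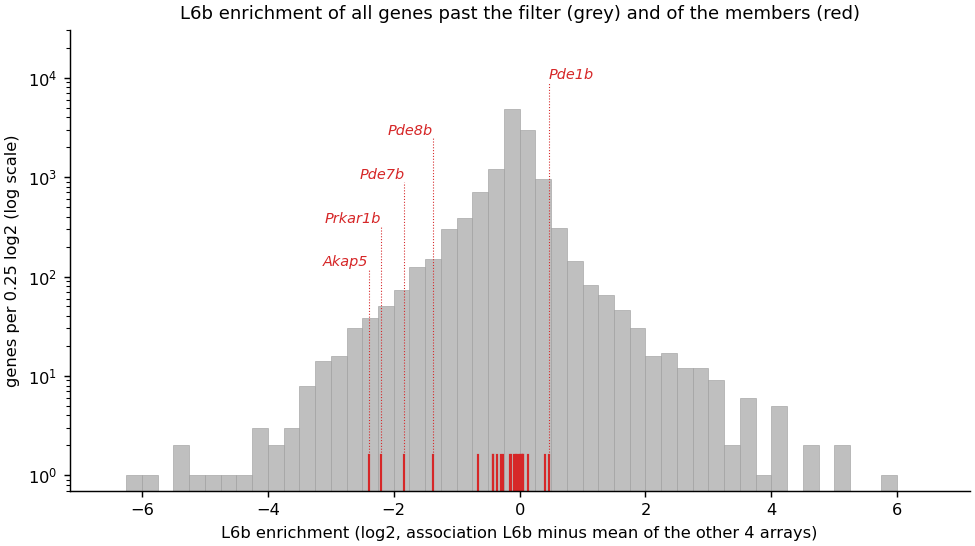
Number of genes (vertical axis, log scale) by L6b enrichment in log2 (horizontal axis, bins of 0.25) for the 12632 genes kept (grey bars), with the 25 members as red ticks. Most members lie near 0, 4 lie from -2.40 to -1.38 (*Akap5*, *Prkar1b*, *Pde7b*, and *Pde8b*), and the highest, *Pde1b*, lies at 0.46.

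*Akap5* encodes a postsynaptic scaffold that holds PKA, protein kinase C, and the phosphatase calcineurin at excitatory synapses. Its signal was 0.52 in L6b, 2.37 and 2.40 in association and callosal L5 (identical as deposited), 2.78 in callosal L2/3, and 4.11 in association L2/3. L6b was thus the lowest array by 1.85 log2 and association L2/3 the highest by 1.33. The L6b enrichment was -2.40, a 5.26-fold lower signal that ranked 103 from the lowest of 12632 genes. It was also the one member that any array held at least 2-fold above all the rest, in association L2/3, against 2.34% of all genes.

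*Prkar1b* encodes RIβ, a regulatory subunit of PKA that is enriched in neurons. Its signal was 1.89 in association L6b and between 3.97 and 4.23 in the other arrays, with the L5 arrays at 3.97 (association) and 4.23 (callosal) and the L2/3 arrays at 4.15 (association) and 4.0 (callosal). The 4 arrays outside L6b therefore lay within 0.26 of each other, and L6b lay 2.08 below the nearest. The L6b enrichment of -2.20 was a 4.59-fold lower signal and ranked 136 from the lowest. The other regulatory subunits did not have this gap. *Prkar1a*, which encodes the widely expressed RIα, stood at 2.97 in L6b and at 3.20 to 3.70 elsewhere. *Prkar2a*, the RIIα gene, stood at 0.79 in L6b and at 0.91 to 1.30 elsewhere. *Prkar2b*, the gene of the RIIβ subunit that is prominent in brain, had 2.04 in L6b, inside the range of the others. Its lowest array was association L5 at 1.32, with 2.10 in callosal L5, 2.13 in association L2/3, and 2.45 in callosal L2/3. As deposited, its values in L6b, callosal L5, and association L2/3 were identical. The catalytic subunit gene *Prkacb* varied by 0.20 over all arrays, from 4.07 to 4.27.

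*Pde8b* encodes a phosphodiesterase specific for cyclic AMP with a high affinity for it. Its signal was -0.04 in L6b, 1.19 in association L5, 1.22 in both callosal arrays, and 1.74 in association L2/3. The association L5 and callosal values were identical as deposited. L6b was 1.23 below the nearest array, and its signal there was at the array median, so the size of this difference rests on a dim value. The L6b enrichment was -1.38, or 2.61-fold lower. Beside these 3 values, the median L6b enrichment was -0.67 over the glutamatergic and -0.75 over the GABAergic markers, and their part in the low signals was not tested.

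The promoters of the 3 genes set apart in L6b are shown so that the cyclic AMP response element through which CREB acts can be looked for in them. That of *Prkar1a* is shown beside them as the only member found with a complete element. Promoter windows from RefSeq were held for 25 of the 32 genes, and the 250 bases before each start were searched on both strands for TGACGTCA, the complete element, and for TGACG, its short form, which the complete element contains on each strand. The complete element occurred in 1.55% of all 32851 windows and the short form in 17.8%. Of the 25 member genes, *Prkar1a* alone held a complete element, against 1.77% of all genes, and 10 held a short form in at least 1 window, against 19.8% of all genes. These shares per gene are not like for like. The 25 member genes had 62 windows, while all 27025 genes had 32851, so a member had more windows in which a match could fall. *Prkar1b* held 1 short form, 49 bases before the start, in 1 of its 5 windows, and *Prkar1a* held short forms in 3 of its 6. The 5 windows of *Pde8b* and the single window of *Akap5* held none. Where the windows of a gene differed, the one with the most matches is shown. The sequences run 5′ to 3′ toward the gene start, and capitals mark the short forms and the complete element. A match of letters describes the sequence and does not show a site in use.
Akap5, GRCm38.p6 chr12:76324641-76324890, plus strand: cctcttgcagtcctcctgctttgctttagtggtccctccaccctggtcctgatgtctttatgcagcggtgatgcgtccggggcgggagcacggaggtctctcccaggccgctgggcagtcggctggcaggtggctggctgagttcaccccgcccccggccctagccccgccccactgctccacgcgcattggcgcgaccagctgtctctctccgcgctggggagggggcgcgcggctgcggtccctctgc
Prkar1b, GRCm38.p6 chr5:139150002-139150251, minus strand: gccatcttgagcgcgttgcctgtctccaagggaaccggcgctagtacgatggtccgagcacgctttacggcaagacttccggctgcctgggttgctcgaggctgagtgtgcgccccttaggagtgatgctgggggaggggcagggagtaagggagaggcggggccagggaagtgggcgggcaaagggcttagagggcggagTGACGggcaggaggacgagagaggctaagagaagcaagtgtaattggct
Pde8b, GRCm38.p6 chr13:95223051-95223300, minus strand: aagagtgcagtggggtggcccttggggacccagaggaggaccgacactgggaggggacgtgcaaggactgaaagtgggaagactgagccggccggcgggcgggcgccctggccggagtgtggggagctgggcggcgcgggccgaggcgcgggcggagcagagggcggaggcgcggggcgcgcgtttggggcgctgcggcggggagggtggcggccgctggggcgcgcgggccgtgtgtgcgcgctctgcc
Prkar1a, GRCm38.p6 chr11:109650699-109650948, plus strand: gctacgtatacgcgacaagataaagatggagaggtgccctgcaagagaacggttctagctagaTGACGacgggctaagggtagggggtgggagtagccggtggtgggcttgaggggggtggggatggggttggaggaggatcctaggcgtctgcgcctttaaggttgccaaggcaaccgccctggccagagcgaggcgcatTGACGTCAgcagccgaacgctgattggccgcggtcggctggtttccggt

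The phosphodiesterases specific for cyclic AMP held the next differences. *Pde7b*, a cyclic AMP phosphodiesterase of the brain, stood at -0.27 in association L6b and -0.20 in association L5, at 1.81 in callosal L5, 1.93 in association L2/3, and 2.72 in callosal L2/3. The deep association arrays were below the array median and the other 3 lay at least 2.01 above them. In L5 the association array was therefore 4.03-fold below the callosal one, a size that rests on a dim value, while L6b and association L5 differed by 0.07. *Pde7a*, its close relative, had the same lowest array, with -0.41 in L6b, -0.06 in association L5, 0.02 in callosal L5, 0.39 in callosal L2/3, and 0.65 in association L2/3, all near the median. *Pde4b*, a phosphodiesterase of the family that rolipram inhibits, stood out in callosal L2/3, at 1.61, with 0.83 in association L2/3 and 0.44 to 0.52 in the deep arrays. *Pde4a* varied by 0.07.

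*Pde4d*, of the same family, was the only member read by several probe sets, and these did not agree. The brightest is tied by the annotation to 18 transcript records. It stood at 1.69 in L6b, 1.89 in association L5, 1.92 in callosal L5, 1.95 in association L2/3, and 2.46 in callosal L2/3. The values from 1.89 to 1.95 were identical as deposited. The second stood at -0.57 in L6b, 0.02 in callosal L5, 1.16 in callosal L2/3, 1.32 in association L5, and 3.01 in association L2/3, a span of 12.0-fold between association L2/3 and L6b. The third, tied to 1 record, was at 0.65 in association L2/3 and between -2.35 and -1.50 elsewhere. The highest array was thus callosal L2/3 in the first and association L2/3 in the others. The gene produces many transcripts, and which of them each probe set reads was not tested.

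The calcium-dependent phosphodiesterase genes *Pde1a* and *Pde1b* had the highest L6b enrichments among the members, 0.40 and 0.46. The remaining listed gene of this family, *Pde1c*, was below the median in every array, with an L6b enrichment of 0.07. *Pde1a*, which calmodulin activates and which hydrolyzes both cyclic nucleotides, stood at 2.87 in association L2/3 and 3.40 in callosal L2/3, and at 4.0 in L6b, 4.02 in association L5, and 4.10 in callosal L5. The 3 deep arrays lay within 0.10 of each other and above both L2/3 arrays. *Pde1b*, of the same family, had 0.66 and 0.86 in the callosal L5 and L2/3 arrays. It had 1.29 in association L2/3, 1.62 in L6b, and 1.83 in association L5. Each association array was thus above each callosal array. The cyclase gene *Adcy3* had this order too, within a span of 0.16. The share of all genes with this order, or with the order of *Pde1a*, was not counted. *Pde2a*, which cyclic GMP stimulates, varied by 0.09 and *Pde10a*, best known from the striatum, by 0.14. *Pde9a*, which hydrolyzes cyclic GMP, stood at -0.11 in association L2/3 and at 0.17 to 0.41 in the other arrays.

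The cyclases varied little. *Adcy2*, a cyclase that Gβγ subunits stimulate, was the one with a span of 2-fold, though not under the other scalings (0.90 to 0.99), at 2.43 in association L2/3, 1.84 in callosal L2/3, 1.78 in callosal L5, 1.72 in L6b, and 1.38 in association L5. *Adcy1* encodes a cyclase of synaptic plasticity that calcium and calmodulin stimulate. It had 1.44 in callosal L2/3, 1.95, 1.98, and 2.04 in association L6b, L5, and L2/3, and 2.32 in callosal L5. The association values of *Adcy1* were identical as deposited. *Adcy9* ranged from 0.79 in callosal L5 to 1.44 in association L2/3. The span was 0.07 in *Adcy5*, 0.13 in *Adcy7*, 0.16 in *Adcy3*, and 0.21 in *Adcy6*, where the array medians alone can give up to 0.09. No cyclase had an L6b enrichment outside -0.26 to 0.06. *Ppp1r1b*, which encodes DARPP-32, an inhibitor of protein phosphatase 1 once PKA has phosphorylated it, had the identical deposited value of 8.08 in 4 arrays and 8.49 in association L2/3.

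Between projections of the same layer, few members differed by 2-fold. In L2/3, *Akap5* was higher in association than in callosal neurons by 1.33 (1 of 25 members, against 5.07% of all genes), and no member was at least 2-fold lower (3.48% of all genes). In L5, *Pde1b* was higher by 1.17 (3.49% of all genes) and *Pde7b* lower, with a difference of -2.01 (4.97% of all genes). *Akap5* differed by -0.03 in L5 and *Pde1b* by 0.43 in L2/3, and *Pde7b* was lower in association neurons of L2/3 too, at -0.79.

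Between layers, *Pde7b*, *Akap5*, and *Pde1a* were prominent. In association neurons, *Pde1a* was higher in L5 than in L2/3 by 1.15 (1 of 25, against 3.48% of all genes), and *Pde7b* (-2.13), *Akap5* (-1.74), and *Adcy2* (-1.05) were lower (3 of 25, against 7.36%). The *Adcy2* difference was under 2-fold under each other scaling, at -0.99 to -0.90. In callosal neurons, no member was at least 2-fold higher in L5 than in L2/3 (4.08% of all genes) and *Pde4b* was lower, at -1.10 (4.52%). The callosal differences of the association genes had the same sign but were smaller, 0.70 for *Pde1a*, -0.91 for *Pde7b*, -0.38 for *Akap5*, and -0.06 for *Adcy2*. Against association L5, the L6b array had 3 members at least 2-fold lower (*Prkar1b* at -2.08, *Akap5* at -1.85, and *Pde8b* at -1.23, against 7.16% of all genes) and none higher (3.50%). Against association L2/3, 5 members were lower (against 10.6%), *Akap5* at -3.59, *Prkar1b* at -2.26, *Pde7b* at -2.20, *Pde8b* at -1.78, and *Pde7a* at -1.06, and *Pde1a* was higher, at 1.13 (2.83%). The *Pde7a* difference was -0.97 as deposited and -0.90 with the 75th percentile subtracted, both under 2-fold. These comparisons share arrays and are not independent of each other.

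**Figure D4:**
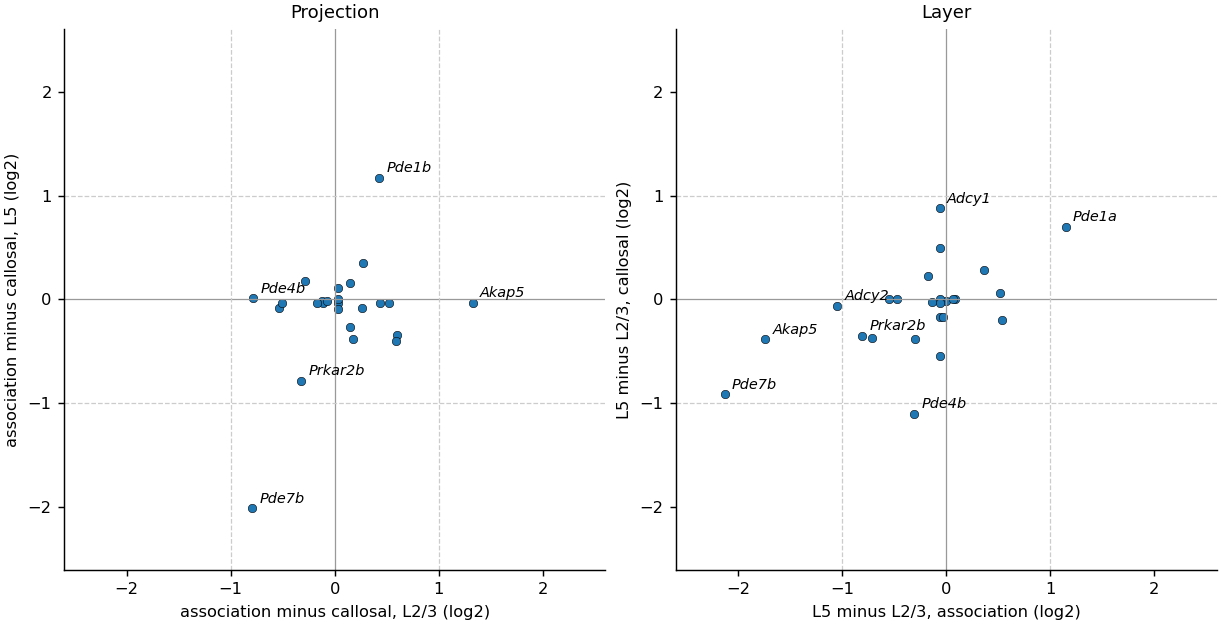
Differences of the 25 members in log2, 1 point per gene. Left, association minus callosal neurons in L2/3 (horizontal) and L5 (vertical), with *Akap5* at 1.33 in L2/3 and -0.03 in L5 and *Pde7b* below 0 in both; right, L5 minus L2/3 in association (horizontal) and callosal neurons (vertical), with *Pde1a* above and *Pde7b* and *Akap5* below 0 in both. Dashed lines mark 2-fold.

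Outside L6b and association L2/3, no member stood at least 2-fold apart from all other arrays. For association L2/3, 0.158% of all genes were lower in this way. In association L5, 1.31% of all genes were higher and 0.823% lower, and for callosal neurons these shares were 1.67% and 0.451% (L2/3) and 1.31% and 0.356% (L5), with 0 of 25 members in each case.

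Of 60 other genes of cyclic nucleotide signaling that were listed, 57 had a probe set and 46 passed the filter, with a median L6b enrichment of -0.14. Of these 46, 3 were in L6b at least 2-fold below every other array, beside the 2.82% of all genes given above, and none was above. *Gucy1b1*, the β subunit gene of soluble guanylyl cyclase, which makes cyclic GMP on binding nitric oxide, stood at -0.11 in L6b and at 2.51 to 3.13 elsewhere, an L6b enrichment of -2.85. *Cdk5*, a neuronal kinase that phosphorylates DARPP-32, stood at 1.16 in L6b and at 3.19 to 4.03 elsewhere. *Akap11*, another anchor of PKA, stood at 2.10 in L6b and at 3.62 to 4.39 elsewhere. A further *Akap11* probe set was also low in L6b (1.67 against 3.57 to 3.90), but its remaining one did not (3.71 against 3.06 to 3.90).

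In association L2/3, 4 of the 46 were at least 2-fold above every other array, where 2.34% of all genes were. *Gucy1a1*, which encodes the α subunit that pairs with the product of *Gucy1b1*, was highest in association L2/3 at 3.31, followed by 2.01 in callosal L2/3, 1.35 in callosal L5, 1.10 in association L5, and 0.12 in L6b. Both of these subunit genes were thus lowest in L6b, as were 17.4% of all genes as deposited. *Gucy1a1* was there less than 2-fold below association L5. Both L6b values lay near the array median, so the size of these differences rests on dim values. The further α subunit gene *Gucy1a2* was not lowest in L6b, at 1.16 there, with 0.67 in association L5 and up to 2.45 in the other arrays. *Akap7* (1.86, with 0.34 to 0.73 elsewhere) and *Akap8* (4.10, with 2.54 to 3.06 elsewhere) were also highest there, as was *Crebbp*, the gene of the CREB coactivator CBP, at 3.59. *Crebbp* was in addition lowest in association L5, at 1.14, with 2.33 to 2.58 in the remaining arrays. *Pde6d*, which encodes a carrier of prenylated proteins, was highest in callosal L2/3, at 4.07, with 1.15 to 2.56 elsewhere.

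**Figure D5:**
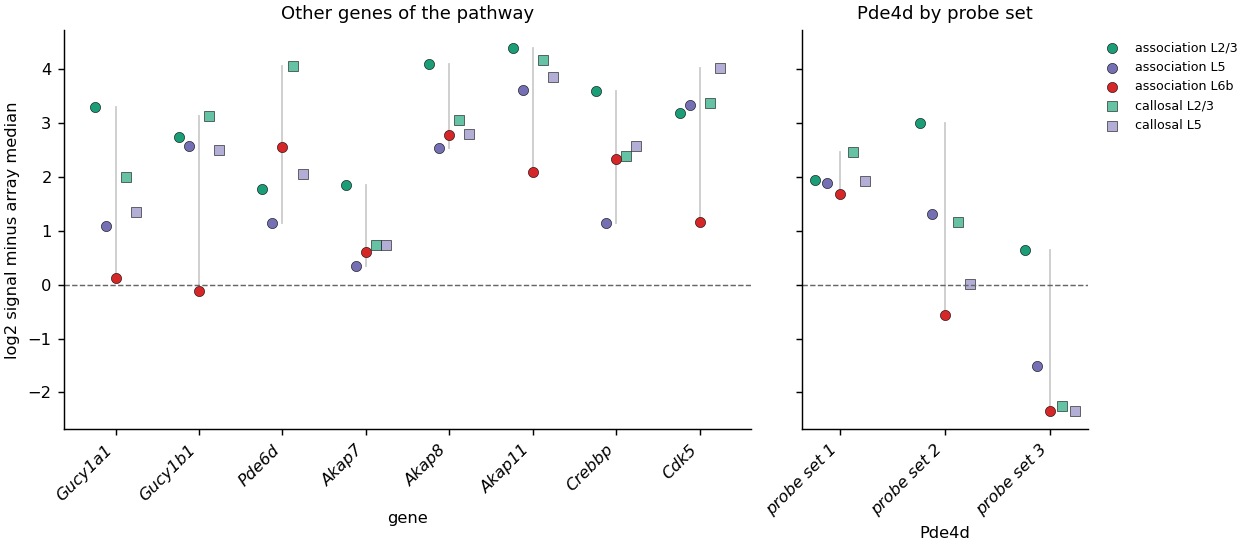
Log2 signal minus the array median (vertical axis), 1 point per array and a grey line over the range. Left, the 8 other genes of the pathway at least 2-fold apart in 1 array, with *Gucy1b1*, *Akap11*, and *Cdk5* lowest in L6b (red) at -0.11, 2.10, and 1.16; right, the 3 probe sets of *Pde4d*, whose highest array is callosal L2/3 in the first and association L2/3 in the others.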

How the data were processed

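The authors captured labeled S1 neurons on 5 arrays (GeneChip Mouse Gene 1.0 ST) and deposited 1 table of log2 signals for 35556 probe sets. The submitters' notes name Affymetrix Expression Console. Neither its version nor its probe summary is stated in what was read here, and the paper's methods describe log transformation, global normalization, and centering. That the scale is log2 was judged from the signals, which range from 1.11 to 14.2 and are not centered per gene. A platform annotation gave 1 symbol to 21789 probe sets, several to 1621, which were not used, and none to 12146.

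Each array's median was subtracted, each gene was represented by its brightest probe set, and genes below the median in every array were removed. Python 3.11.15 with pandas 2.3.3 was used. With 1 array per group, genes were counted by a rule of size (2-fold) and no p-value was computed. The members, the other lists, and the rule for named genes (all members, and other pathway genes at least 2-fold apart in 1 array) were chosen with earlier results of these data known. *Gucy1a2* was named in addition, beside the other subunit genes of its enzyme. Alternatives were 3 other scalings, 2 other filters, the mean over probe sets, and, for the counts and enrichments in L6b, leaving out each of the other 4 arrays. The number of arrays limits the precision of every value.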

Additional observations from a re-analysis of the deposited data

Results flagged for a closer look

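With 1 array per group, no group could be searched for outlying samples. Members were noted where association and callosal neurons differed in opposite directions in L2/3 and L5, by more than the array medians can give and by at least 1.5-fold in 1 layer. The association minus callosal difference of *Adcy1* was 0.60 in L2/3 and -0.34 in L5. That of *Adcy2* was 0.59 in L2/3 and -0.40 in L5. Neither difference between the layers was tested, since each rests on 4 arrays without replicates.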

How the results depend on the processing

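*Akap5*, *Prkar1b*, and *Pde8b* stayed at least 2-fold below every other array in L6b under the 3 other scalings. The remaining alternatives could not undo this for them. Each has 1 probe set, a filter does not change a gene's values, and leaving out an array only removes a comparison. *Pde7b* joined them when association L5 was left out, which made 4. No member was above every other array by 2-fold under any alternative. Subtracting the 75th percentile moved the L6b enrichment of all genes by 0.11, from a median of -0.06 to 0.05, and that of the members to 0.01. The members' median was -0.26 among genes that reached the 75th percentile and -0.19 to -0.07 with an array left out. The count with a span of at least 2-fold was 8 to 11 in place of 10 (without *Adcy2* and *Pde7a* as deposited and with the 75th percentile subtracted) under the 6 alternatives run for it, which, like the counts with an array left out, were chosen after seeing the data. With the mean over all probe sets, 2 members in place of 1 were at least 2-fold apart between the L2/3 arrays, since *Pde4d* was added, and the L6b enrichment of *Pde4d* was -1.10 in place of -0.36. That of *Pde7b* was -2.42 without association L5 in place of -1.83. The remaining 240 values of single members moved by less than 1.5-fold. Whether dim signals, such as *Pde8b* in L6b and *Pde7b* in L6b and association L5, lie above background cannot be told from these values. No paired analysis was possible because each group has 1 array.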
